A study of Rattus norvegicus with 6 samples.

Results

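The 10 genes Hspa5, Xbp1, Dnajb9, Herpud1, Atf4, Ddit3, Atf3, Trib3, Asns and Chac1 were examined in the liver RNA-seq of animals treated with Huazhuo Tiaozhi granule (HTG), a herbal formula given against dyslipidaemia. They were chosen by name as members of the unfolded protein response and the integrated stress response. Each name matched 1 row among the 32930 gene rows of the deposited table, and all 10 passed the expression filter that left 18455 genes to be tested. The 6 libraries came from 6 animals on a high-fat diet. In the HFD group (3 libraries) the diet was given with the vehicle, 0.5% carboxymethyl cellulose-Na, and in the HTG group (3 libraries) with HTG, for 12 weeks according to the series' design text. The paper's methods for its rats start the gavage only some weeks into the 12 weeks of diet, so the length of HTG treatment was not settled. Those methods give every drug in 0.5% carboxymethyl cellulose-Na, so the vehicle need not differ between the groups, although it is recorded here for the HFD group only. The labels write the treatment of the HTG group once as HCG. The labels and design text name rats, the paper's RNA-seq paragraph names C57BL/6 J mice, and every gene row carries a mouse Ensembl identifier. The species was therefore not settled, and values were read as those of the mouse genes named in the table. No age, sex or strain stands in the labels, and no group on a normal diet was analysed here, so the values describe HTG on top of the diet and not the diet itself.

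The endoplasmic reticulum (ER) folds the secreted proteins of the hepatocyte, and unfolded protein there activates the sensors IRE1 (gene Ern1), ATF6 and PERK (Eif2ak3). IRE1 splices the Xbp1 mRNA into the form that encodes the active transcription factor, ATF6 is cut to release a transcription factor, and PERK phosphorylates the translation factor eIF2α (Eif2s1). PERK shares this last step with GCN2 (Eif2ak4), the sensor of amino acid shortage, and the phosphorylation favours translation of ATF4, which switches on genes of amino acid synthesis and of cell stress. This shared arm is the integrated stress response. ATF4 is controlled mainly by translation and ATF6 and Xbp1 by cutting and splicing, so the counts of their mRNAs do not measure their activity, and the gene counts used here do not separate spliced from unspliced Xbp1.

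Promoter sequences of the members are shown because the regulators named above act through short, well-known DNA elements. Of the 10 members, 9 had an entry (not Atf3) in a RefSeq table of rat promoters (build GRCr8), which holds 250 bases before and 50 bases after each gene's annotated start. These are rat sequences beside expression rows named as mouse genes. Both strands were searched for the ER stress response element (ERSE), which is CCAAT, 9 bases of any kind and CCACG, for ERSE-II, which is ATTGG, 1 base of any kind and CCACG, and for the C/EBP-ATF response element (CARE, TGATGNAA), a site of ATF4. ERSE was found in 22 (0.0657%) of the 33469 promoters of that table, ERSE-II in 17 (0.0508%) and CARE in 1332 (3.98%). Among the 9 members, ERSE lay in Hspa5 (bases -43 to -25 from the start) and Xbp1 (-65 to -47), ERSE-II in Herpud1 (-124 to -114), and CARE, on the opposite strand, in Herpud1 (-184 to -177), Trib3 (-21 to -14) and Chac1 (-167 to -160). A match describes letters and not a bound site, and the windows of Dnajb9, Atf4, Ddit3 and Asns held no match. The 5 promoters with a match are given 5′ to 3′ on the gene's strand, with the matches in capitals, for Hspa5 (chr3:38452766-38453065, plus strand), Xbp1 (chr14:84604373-84604672, plus), Herpud1 (chr19:10614658-10614957, minus), Trib3 (chr3:161275484-161275783, minus) and Chac1 (chr3:126795881-126796180, plus).
Hspa5: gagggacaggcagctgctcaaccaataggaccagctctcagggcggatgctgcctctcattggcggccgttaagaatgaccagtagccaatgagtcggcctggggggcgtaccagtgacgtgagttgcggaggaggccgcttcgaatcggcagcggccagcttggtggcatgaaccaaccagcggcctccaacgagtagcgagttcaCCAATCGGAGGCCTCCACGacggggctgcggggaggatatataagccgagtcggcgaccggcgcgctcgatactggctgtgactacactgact
Xbp1: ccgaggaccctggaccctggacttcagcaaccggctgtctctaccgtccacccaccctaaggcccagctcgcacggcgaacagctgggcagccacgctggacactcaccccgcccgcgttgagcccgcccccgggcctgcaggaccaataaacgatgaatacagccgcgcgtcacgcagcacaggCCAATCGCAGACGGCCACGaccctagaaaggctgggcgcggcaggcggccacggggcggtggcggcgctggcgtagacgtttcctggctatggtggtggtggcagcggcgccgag
Herpud1: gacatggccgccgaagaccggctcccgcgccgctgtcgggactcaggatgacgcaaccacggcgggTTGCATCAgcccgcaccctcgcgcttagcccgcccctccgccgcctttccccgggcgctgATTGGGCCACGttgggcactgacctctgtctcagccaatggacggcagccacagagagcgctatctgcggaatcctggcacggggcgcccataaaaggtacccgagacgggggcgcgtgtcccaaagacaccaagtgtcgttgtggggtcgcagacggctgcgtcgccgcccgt
Trib3: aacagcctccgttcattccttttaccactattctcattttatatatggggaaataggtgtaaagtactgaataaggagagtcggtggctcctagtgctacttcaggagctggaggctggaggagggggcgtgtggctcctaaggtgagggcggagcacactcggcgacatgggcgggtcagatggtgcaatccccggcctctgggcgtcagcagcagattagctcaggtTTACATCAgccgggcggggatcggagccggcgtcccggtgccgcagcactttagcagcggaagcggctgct
Chac1: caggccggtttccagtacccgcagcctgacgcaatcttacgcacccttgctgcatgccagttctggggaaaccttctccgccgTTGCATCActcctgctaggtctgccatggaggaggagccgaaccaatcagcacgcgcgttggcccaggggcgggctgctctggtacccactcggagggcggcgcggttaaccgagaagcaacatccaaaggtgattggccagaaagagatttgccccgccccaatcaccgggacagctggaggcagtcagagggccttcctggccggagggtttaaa

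**Figure D1:**
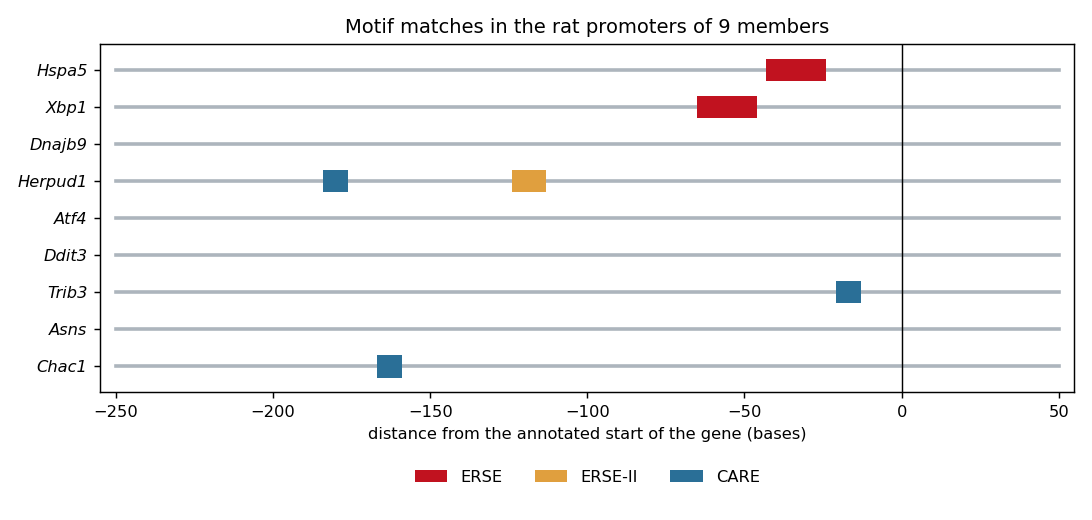
Positions of motif matches in the 9 rat promoters, from 250 bases before to 50 bases after the annotated start (x axis, bases; vertical line, start). Coloured boxes mark ERSE, ERSE-II and CARE, which lie in Hspa5, Xbp1, Herpud1, Trib3 and Chac1.

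The authors' estimated counts summed to between 50648778 (HTG library 3) and 90563477 (HTG library 2) per library. A count of 4 came on 6450 occasions over all genes and libraries, against 2549 for 3 and 1757 for 5. A count of 8 came on 3333, against 1521 for 7 and 1170 for 9. Counts of 1 and 2 were also frequent (5104 and 4229), so the steps were not clean. As an assumption, a fragment was taken as about 4 counts and the limit of an empty gene as 12 counts. This limit was 0.123 to 0.256 CPM (counts scaled to a common library size) depending on the library. These limits cover counting error only. Every value of the 10 members lay above this limit. Hepatocyte markers summed to 91168 to 104362 CPM under HFD and 89496 to 90147 CPM under HTG. Most of this sum was Alb, and single markers differed in direction. Apoa1 was higher (log2 fold change 1.24) and Apob (-1.05) and Cps1 (-1.62) were lower at an unadjusted p under 0.05 (edgeR). The other 5 hepatocyte markers did not pass. Leukocyte and Kupffer cell markers, taken as 1 list, summed to 528 to 809 CPM under HFD and 363 to 601 CPM under HTG. Exocrine pancreas markers, of which Cela3b, Pnlip and Ctrb1 stood at 0 in every library, summed to at most 4.95 CPM. Mitochondrially encoded mRNAs summed to 50421 to 60561 CPM under HFD and 91941 to 140380 CPM under HTG. In bulk tissue, fewer cells of a type and less RNA per cell cannot be told apart.

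Between the groups, Xbp1 was higher and Herpud1 and Atf3 were lower with HTG at an unadjusted p under 0.05 (edgeR's quasi-likelihood test), and the other 7 members did not pass that threshold. The count of 3 in 10 stands beside 24.7% of all genes tested (12.3% higher and 12.4% lower), so it was near the background. At an adjusted p under 0.05 edgeR called 0 members, against 0.0108% of all genes tested, and DESeq2 called the same 3 genes, against 10.5% of the genes it tested. Of the 10 fitted changes 5 were up and 5 were down, with a median log2 fold change, HTG over HFD, of -0.13 beside 0.03 over all genes tested. The fitted directions were thus mixed. Where 3 values follow each other for a group, they are those of libraries 1, 2 and 3, and SE is the standard error of a log2 fold change.

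**Figure D2:**
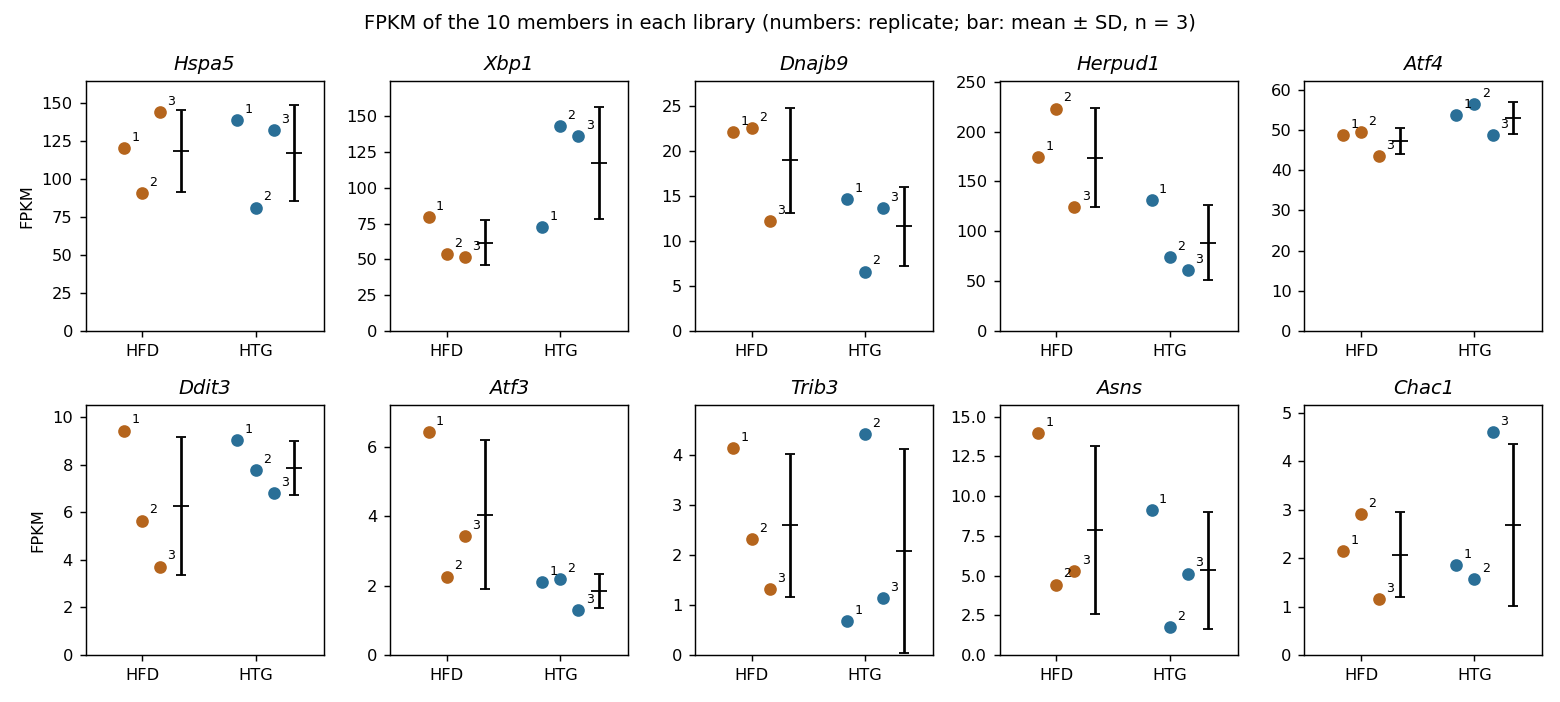
FPKM (y axis, linear from 0) of each member in the 3 HFD and 3 HTG libraries, with the replicate number beside each point and the mean ± SD (n = 3) as a bar. The groups overlap for Xbp1 and Herpud1, while for Atf3 the highest HTG value, 2.18, lies just under the lowest HFD value, 2.26.

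Levels were compared between genes on the FPKM scale, which divides by transcript length and library size. Herpud1, Hspa5 and Xbp1 were the most abundant, with medians over the 6 libraries of 128, 126 and 76.1 FPKM, followed by Atf4 with 49.1 FPKM. Herpud1 and Hspa5 could not be ordered, since Herpud1 was above Hspa5 in 2 of 6 libraries and their ranges overlapped. Atf4 (43.5 to 56.4 FPKM) stood clear of every less abundant member. Dnajb9 (median 14.2 FPKM), Ddit3 (7.29) and Asns (5.20) followed, and Atf3 (2.22), Chac1 (2.01) and Trib3 (1.81) were the least abundant. Among the 6 lower members each range overlapped that of the next in order.

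Among the ER targets, Hspa5 (ENSMUSG00000026864, chromosome 2, 34661982 to 34667559 in the authors' table, whose genome build is not stated) encodes BiP, the main ER chaperone of the HSP70 family. It had 121, 90.8 and 144 FPKM under HFD and 139, 81.3 and 132 FPKM under HTG. Library 2 was the lowest of both groups, and the groups overlapped almost fully. Its fitted log2 change was 0.06 (SE 0.29, 95% interval -0.60 to 0.72, edgeR), so a change of more than 1 log2 unit in either direction lay outside the interval.

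Xbp1 (ENSMUSG00000020484, chromosome 11, 5470659 to 5475893) encodes the transcription factor that IRE1 activates. It had 17589, 12926 and 12101 counts under HFD and 19676, 44916 and 23782 under HTG. Per length and depth this was 79.7, 53.9 and 51.5 FPKM against 72.5, 143 and 136 FPKM. HTG libraries 2 and 3 stood far above every HFD library, whereas HTG library 1 lay just under HFD library 1, so the groups overlapped. The normalised level was 207 ± 46.3 CPM in the HFD group and 407 ± 136 CPM in the HTG group (SD, n = 3 per group), 1.97-fold higher. The fitted log2 change was 0.97 (SE 0.30, 95% interval 0.28 to 1.67, adjusted p = 0.102 in edgeR's quasi-likelihood test, 0.0208 to 0.277 over the alternative fits). Its unadjusted p stayed under 0.05 in all 6 fits that left out 1 library, the highest being 0.0466 without HTG library 3. Plasma cells are also rich in Xbp1, and of their 5 markers tested Igkc was higher (log2 fold change 0.71) and Sdc1, which hepatocytes make too, was lower (-1.13) at an unadjusted p under 0.05 (edgeR). Jchain (-0.02), Ighm (0.05) and Mzb1 (-0.42) did not pass. The 6 markers together summed to 174 to 360 CPM under HFD and 126 to 207 CPM under HTG. Most of that sum was Sdc1, with 135, 310 and 222 CPM under HFD and 147, 63.7 and 94.1 CPM under HTG. Igkc had 15.0, 26.9 and 27.8 CPM under HFD and 37.3, 43.9 and 32.9 CPM under HTG, so the sum does not follow the single markers. The part of plasma cells in the Xbp1 result was not tested.

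Herpud1 (ENSMUSG00000031770, chromosome 8, 95113066 to 95122005) encodes an ER membrane protein of ER-associated degradation, the pathway that removes misfolded protein. It had 27677, 38398 and 20907 counts under HFD and 25557, 16680 and 7690 under HTG, or 175, 223 and 124 FPKM against 131, 73.9 and 61.2 FPKM. HTG libraries 2 and 3 were the lowest of the 6, and HTG library 1 lay above HFD library 3. The group levels were 424 ± 143 and 221 ± 92.8 CPM (SD, n = 3 per group), 1.92-fold lower with HTG. The fitted log2 change was -0.94 (SE 0.35, 95% interval -1.75 to -0.14, adjusted p = 0.148 in edgeR's quasi-likelihood test, 0.0395 to 0.374 over the alternative fits). Single libraries weighed on it: the unadjusted p was 0.0531 without HFD library 1, 0.102 without HFD library 2, 0.0869 without HTG library 2 and 0.0976 without HTG library 3, where the log2 fold changes were -0.97, -0.66, -0.79 and -0.75.

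HTG libraries 2 and 3, with the most Xbp1, had the least Herpud1. The ratio of Xbp1 to Herpud1 in FPKM, in which library scaling cancels, was 0.456, 0.242 and 0.416 under HFD and 0.553, 1.93 and 2.22 under HTG. Every HTG ratio lay above every HFD ratio, HTG library 1 by little. The pair was chosen after its values were seen, so the ratio was not tested. The ERSE of Xbp1 and the ERSE-II of Herpud1 are printed among the promoters above.

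Dnajb9 (ENSMUSG00000014905, chromosome 12, 44252342 to 44257109) encodes ERdj4, a co-chaperone of BiP and a classic target of spliced Xbp1. It had 22.1, 22.5 and 12.2 FPKM under HFD and 14.7, 6.61 and 13.7 FPKM under HTG. HTG library 2, with the most Xbp1 FPKM of all libraries, had the least Dnajb9. In CPM, however, Xbp1 was highest in HTG library 3 (508 against 459 CPM in HTG library 2). Dnajb9 had 40.2, 16.7 and 40 CPM in the HTG libraries, so the library with the most Xbp1 CPM was not the lowest. HFD library 3 lay among the HTG values. The fitted log2 change was -0.64 (SE 0.38, 95% interval -1.50 to 0.22, adjusted p = 0.329 in edgeR's quasi-likelihood test), and without HFD library 3 it was -0.90, with an unadjusted p of 0.0432.

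Among the genes of the integrated stress response, Atf4 (ENSMUSG00000042406, chromosome 15, 80139385 to 80141742) encodes the central transcription factor. Its values were the steadiest of the members, with 48.8, 49.5 and 43.5 FPKM under HFD and 53.7, 56.4 and 48.6 FPKM under HTG. In CPM, scaled by edgeR's library factors, the groups did not overlap (115, 129 and 103 against 136, 132 and 132), as in 16.5% of all genes tested that were higher, whereas in FPKM HTG library 3 lay below HFD libraries 1 and 2. The log2 fold change of 0.20 (SE 0.17, 95% interval -0.19 to 0.59, adjusted p = 0.502 in edgeR's quasi-likelihood test) was within the spread between libraries.

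Ddit3 (ENSMUSG00000025408, chromosome 10, 127126643 to 127132157), which encodes CHOP, a factor of ER stress and cell death, had 9.44, 5.65 and 3.71 FPKM under HFD and 9.04, 7.77 and 6.80 FPKM under HTG. HFD library 1 was the highest of the 6 in FPKM, whereas in CPM HTG library 1 was (16.6 against 16.1 CPM). HFD libraries 2 and 3 were the lowest on both scales. The fitted log2 change was 0.38 (SE 0.31, 95% interval -0.34 to 1.09, edgeR). Without HFD library 1 it was 0.75, with an unadjusted p of 0.0306, and without HFD library 3 it was 0.10. The table places Ddit3 across the tRNA synthetase gene Mars1 on the other strand, which had 25606 counts over the 6 libraries against 5486 for Ddit3, so its counts are uncertain where the counting did not use strand.

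Atf3 (ENSMUSG00000026628, chromosome 1, 190902493 to 190950236) encodes a stress-induced transcription factor that also belongs to the immediate early genes. It had 941, 360 and 535 counts under HFD and 378, 455 and 150 under HTG, or 6.43, 2.26 and 3.43 FPKM against 2.10, 2.18 and 1.29 FPKM. HFD library 1 was high and the groups did not overlap, as in 15.5% of all genes tested that were lower (32.1% in either direction). The group levels were 8.89 ± 4.39 and 4.24 ± 0.901 CPM (SD, n = 3 per group), 2.09-fold lower with HTG. Its fitted log2 change was -1.07 (SE 0.37, 95% interval -1.90 to -0.23, adjusted p = 0.124 in edgeR's quasi-likelihood test, 0.0400 to 0.309 over the alternative fits), which made it the 1 member with both a change of over 1 log2 unit in size and an unadjusted p under 0.05, against 3.88% of all genes tested that were lower past both limits, 4.97% that were higher and 8.85% in all. The unadjusted p of Atf3 was 0.0901 without HFD library 1, with a log2 fold change of -0.60, and 0.0661 without HTG library 3, with -0.90. The 9 immediate early genes examined beside it summed to 328 to 491 CPM under HFD and 304 to 871 CPM under HTG. Of these, Junb was higher and Jun was lower at an unadjusted p under 0.05 (log2 fold changes 1.38 and -0.94, edgeR), and 2 of 9 leukocyte markers, Adgre1 (-1.53) and Lyz2 (-0.76), were lower. The part of these genes in the Atf3 result was not tested.

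Trib3 (ENSMUSG00000032715, chromosome 2, 152179342 to 152185952) encodes a pseudokinase induced by ATF4 and CHOP. It had 4.14, 2.31 and 1.31 FPKM under HFD and 0.67, 4.41 and 1.13 FPKM under HTG, so the highest and the lowest value of the series were both in the HTG group, 6.08-fold apart in CPM. Asns (ENSMUSG00000029752, chromosome 6, 7675169 to 7693254) encodes asparagine synthetase, a standard readout of ATF4. It had 14.0, 4.42 and 5.28 FPKM under HFD and 9.12, 1.74 and 5.12 FPKM under HTG. HTG library 2 thus had the most Trib3 and the least Asns of all 6. Chac1 (ENSMUSG00000027313, chromosome 2, 119181710 to 119184862), which encodes an enzyme that degrades glutathione, had 2.15, 2.91 and 1.16 FPKM under HFD and 1.86, 1.57 and 4.61 FPKM under HTG, HTG library 3 being the highest. The log2 fold changes of Trib3, Asns and Chac1 were -0.33 (95% interval -1.83 to 1.17), -0.47 (-1.86 to 0.91) and 0.43 (-0.78 to 1.64). These intervals are wide and allow changes of over 1.5-fold in either direction for each of the 3 genes, so no change was detectable and none was shown to be absent.

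**Figure D3:**
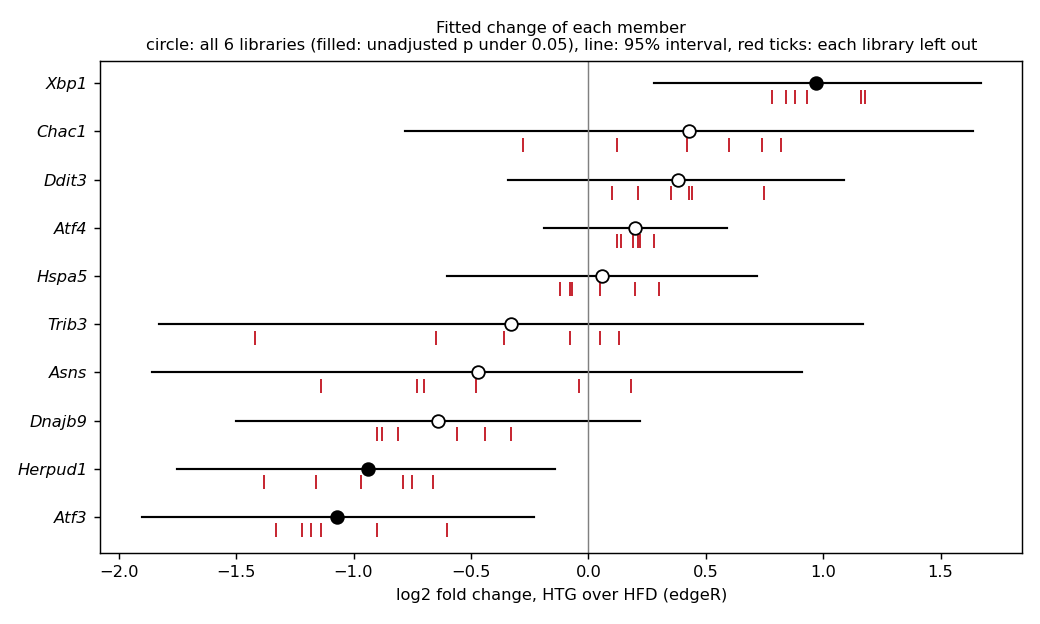
Log2 fold change of each member, HTG over HFD (x axis), from edgeR. Circles are the fit on 6 libraries (filled where the unadjusted p was under 0.05), lines are 95% intervals and red ticks are the 6 fits without 1 library each. The ticks of Xbp1 lie between 0.78 and 1.18, and those of Trib3 between -1.42 and 0.13.

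Spread within the groups differed among the members. The highest library stood 1.03-fold above the lowest in the HTG group for Atf4 and 6.08-fold for Trib3, beside a median of 1.5-fold over all genes tested (1.56-fold in the HFD group). Asns varied 2.85-fold within the HFD group and 5.66-fold within the HTG group. HFD library 1 had the highest HFD value in 5 of the 10 members (Xbp1, Ddit3, Atf3, Trib3 and Asns) and the lowest in 0, while HFD library 3 had the lowest in 7. In the HTG group, library 1 was highest in 6 members and library 2 lowest in 6. The order of the libraries over all genes tested was not examined, so these counts cannot be called particular to the members. The members of the integrated stress response did not order the libraries alike, as Trib3 and Asns show for HTG library 2.

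The other genes of these pathways were taken as 110 genes in 7 lists by role, and all 110 were tested. At an unadjusted p under 0.05 (edgeR), 11 rose with HTG, 28 fell and 71 did not pass, beside 12.3% higher and 12.4% lower among all genes tested. Their median log2 fold change was -0.21, with 32 changes above 0 and 75 below. At an adjusted p under 0.05 edgeR called 0 of them (0.0108% of all genes tested) and DESeq2 called 23 (10.5% of the genes it tested). The median was negative in 6 of the 7 lists and positive (0.23) for ER folding. No list was tested as a set and no difference between lists was tested, and the counts of each list at an unadjusted p under 0.05 are to be read against the same 12.3% higher and 12.4% lower.

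**Figure D4:**
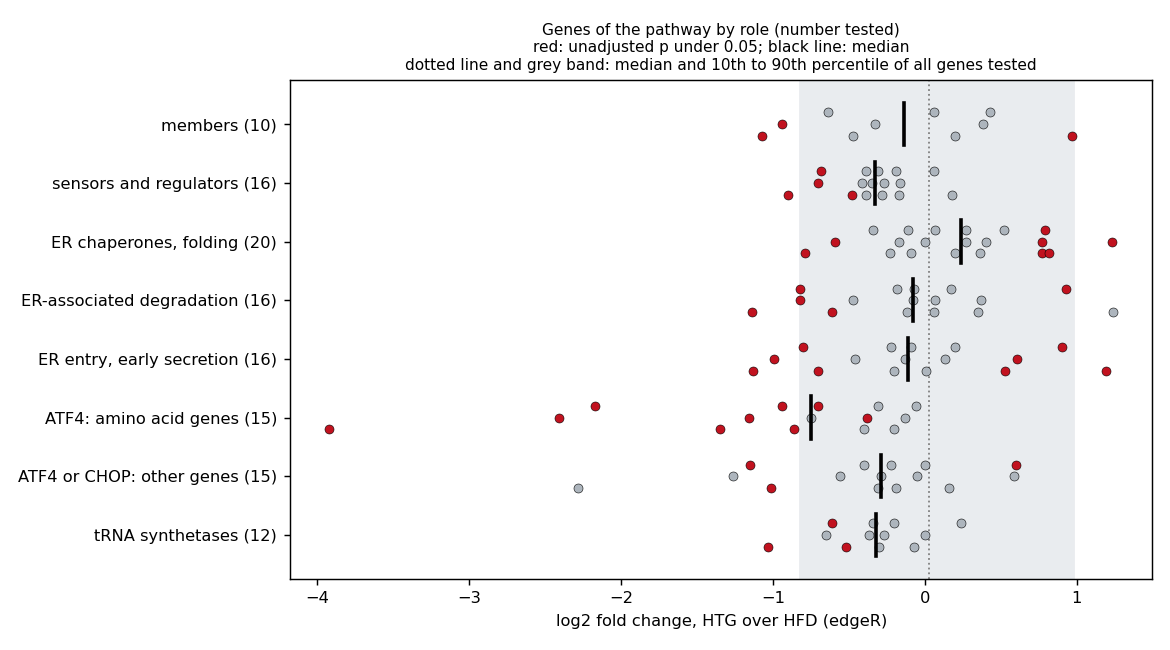
Log2 fold change (x axis, HTG over HFD, edgeR) of the members and of 7 lists of pathway genes, with the number tested beside each name. Red points have an unadjusted p under 0.05, black lines are list medians, and the dotted line and grey band give the median (0.03) and the 10th to 90th percentile (-0.82 to 0.98) of all genes tested. The amino acid genes lie below 0 throughout, with a median of -0.75.

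Among 16 sensors and regulators, 0 were higher and 4 were lower, and 14 of the 16 fitted log2 fold changes were negative (median -0.33). Atf6 itself had 3999, 6044 and 4131 counts under HFD and 3641, 2962 and 1576 under HTG, and after scaling every HTG library lay below every HFD library (58.7, 90.6 and 57.5 against 46.7, 30.3 and 33.6 CPM). Its fitted log2 change was -0.90 (SE 0.25, adjusted p = 0.0837 in edgeR's quasi-likelihood test), and its unadjusted p was under 0.05 without each single library. Eif2s1 (log2 fold change -0.68), Nfe2l1 (-0.70), which encodes an ER-anchored factor of proteasome genes, and Mbtps2 (-0.48), which encodes a protease that cuts ATF6, were the other 3. Mbtps2 kept an unadjusted p under 0.05 in 1 of 6 fits without a library. In CPM the groups did not overlap, with HTG lower, for 6 of the 16 genes, Atf6 and Eif2ak3 among them. This stands beside 15.5% of all genes tested. The IRE1 gene Ern1 (49.2 ± 10.5 and 43.6 ± 9.76 CPM), the PERK gene Eif2ak3 (14.5 ± 0.258 and 12.0 ± 1.47 CPM) and the GCN2 gene Eif2ak4 (10.5 ± 2.89 and 9.40 ± 0.919 CPM; SD, n = 3 per group) did not pass, with log2 fold changes of -0.17, -0.27 and -0.16.

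Among 20 genes of ER chaperones and oxidative folding, 5 were higher and 2 were lower, with a median log2 fold change of 0.23. Sdf2l1, which encodes a partner of BiP in the ER, had 14.6, 6.73 and 14.8 CPM under HFD and 29.5, 17.0 and 38.6 CPM under HTG. Its groups did not overlap, as in 16.5% of all genes tested that were higher. Its fitted log2 change was 1.23 (SE 0.37, adjusted p = 0.0978 in edgeR's quasi-likelihood test). The prolyl isomerase gene Ppib (log2 fold change 0.77), the disulfide isomerase gene Pdia3 (0.77), the lectin chaperone gene Calr (0.79) and Manf (0.82), which encodes a secreted ER stress protein, were the other higher genes. The lower genes were Canx (-0.79), which encodes calnexin, the membrane-bound relative of the calreticulin that Calr encodes, and the oxidase gene Ero1a (-0.59). Calr and Canx thus differed in direction, with 499 ± 120 and 863 ± 240 CPM for Calr and 204 ± 16.7 and 118 ± 47.1 CPM for Canx (HFD and HTG groups, SD, n = 3). Calr and Manf each kept an unadjusted p under 0.05 in 2 of 6 fits without a library. The unadjusted p of Canx was 0.0643 without HFD library 2, 0.0611 without HTG library 2 (log2 fold change -0.54) and 0.0766 without HTG library 3, and that of Ero1a was 0.0501 without HFD library 3 and 0.0545 without HTG library 2 (edgeR). Without single libraries the higher genes of this list numbered 3 to 8 and the lower genes 0 to 2. Hspa5, the gene of BiP itself, was not among the genes that passed.

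Among 16 genes of ER-associated degradation, Syvn1 was higher and 4 were lower. Syvn1, which encodes the ubiquitin ligase HRD1, had 74.2, 64.8 and 57.2 CPM under HFD and 123, 96.6 and 155 CPM under HTG. Its fitted log2 change was 0.93 (SE 0.22, adjusted p = 0.0627 in edgeR's quasi-likelihood test), opposite in direction to Herpud1, whose protein works in the same complex. The lower genes included Vcp (-0.82), which encodes the p97 ATPase that extracts proteins from the ER, and its cofactor gene Nploc4 (-1.14), together with Derl1 (-0.61), which kept an unadjusted p under 0.05 in 5 of 6 fits without a library. Nploc4 had 56.6, 96.4 and 66.6 CPM against 38.5, 28.1 and 33.1 CPM. The median of the list was -0.08.

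Among 16 genes of ER entry and early secretion, 4 were higher (Sec61g, Sec61b, Ssr4 and Ssr1) and 4 were lower (Spcs1, Srp54a, Srpr and Sec24d). Sec61g and Sec61b encode the small subunits of the channel that takes proteins into the ER, and had log2 fold changes of 1.19 (SE 0.20) and 0.90 (SE 0.16). Sec61a1, which encodes the pore itself, had 137 ± 24.9 and 158 ± 31.6 CPM (SD, n = 3 per group) and a log2 fold change of 0.20. Lower genes of this list included the signal peptidase gene Spcs1 (-1.13) and the receptor gene Srpr (-0.80). Ssr4 (0.53) had an unadjusted p of 0.0682, 0.0662 and 0.0685 without HFD library 1, HFD library 3 and HTG library 1, and Spcs1 of 0.0501 without HTG library 3 (edgeR). Ssr1 kept an unadjusted p under 0.05 in 3 and Srp54a in 4 of these 6 fits. Transcript length moved weakly with the group: over 17788 genes the Spearman correlation of implied transcript length and log2 fold change was -0.15, given as a description, since genes are not replicates. Of 3 equal groups of genes by length, the shortest had a median log2 fold change of 0.20 and the longest -0.04. With the length trend of each library removed, Sec61g and Sec61b had 1.15 and 0.71, and Xbp1, Herpud1 and Atf3 had 0.97, -1.0 and -1.13.

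Among 15 genes of amino acid synthesis and transport known as ATF4 targets, the company of Asns, 9 were lower and 0 were higher, and all 15 fitted log2 fold changes were negative (median -0.75). The 9 lower genes stand beside 12.4% of all genes tested. In the fits without 1 library, 5 to 8 genes were lower and 0 were higher, and the median stayed between -1.01 and -0.48. Phgdh and Psat1 encode the first steps of serine synthesis. Phgdh had 43, 378 and 388 counts under HFD and 14, 39 and 8 under HTG, and Psat1 had 100, 269 and 371 against 69, 52 and 45. For both genes HFD library 1 lay far nearer to the HTG libraries than to HFD libraries 2 and 3. In HTG libraries 1 and 3 the Phgdh counts (14 and 8) lay near or under the limit of 12 counts, while HTG library 2 had 39. The fitted change of Phgdh thus depends on how low counts are treated and is not a measured size. The fitted log2 fold changes were -3.92 (SE 0.82) and -2.17 (SE 0.50), with adjusted p-values of 0.0585 and 0.0616 in edgeR's quasi-likelihood test. In Slc7a1, which encodes a transporter of arginine and lysine, HFD libraries 2 and 3 were again high (42, 428 and 470 counts against 55, 101 and 38), and HFD library 1 lay below every HTG library after scaling (0.617 against at least 0.706 CPM). Cth, which encodes the cystathionine gamma-lyase of cysteine synthesis and is abundant in liver, had 33887, 43168 and 25893 counts against 22401, 14470 and 7278. Its HFD library 1 did not stand apart, and its fitted log2 change was -1.35 (SE 0.33, adjusted p = 0.0663 in edgeR's quasi-likelihood test). The other lower genes were Gpt2 (-0.86), Slc7a5 (-0.94), Aldh18a1 (-0.70), Slc7a11 (-1.16) and Slc3a2 (-0.38). Slc7a11 was low throughout, with 61, 83 and 94 counts against 66, 34 and 16, and its HTG library 3 lay near the limit of 12 counts. Of the 6 fits without a library, the unadjusted p stayed under 0.05 in 6 for Gpt2, 3 for Aldh18a1, 2 for Slc7a5, 2 for Slc3a2 and 1 for Slc7a11. HFD library 1, low in Phgdh, Psat1 and Slc7a1, was the highest of the 6 libraries in Asns and Atf3, so these ATF4 targets did not order the animals alike.

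**Figure D5:**
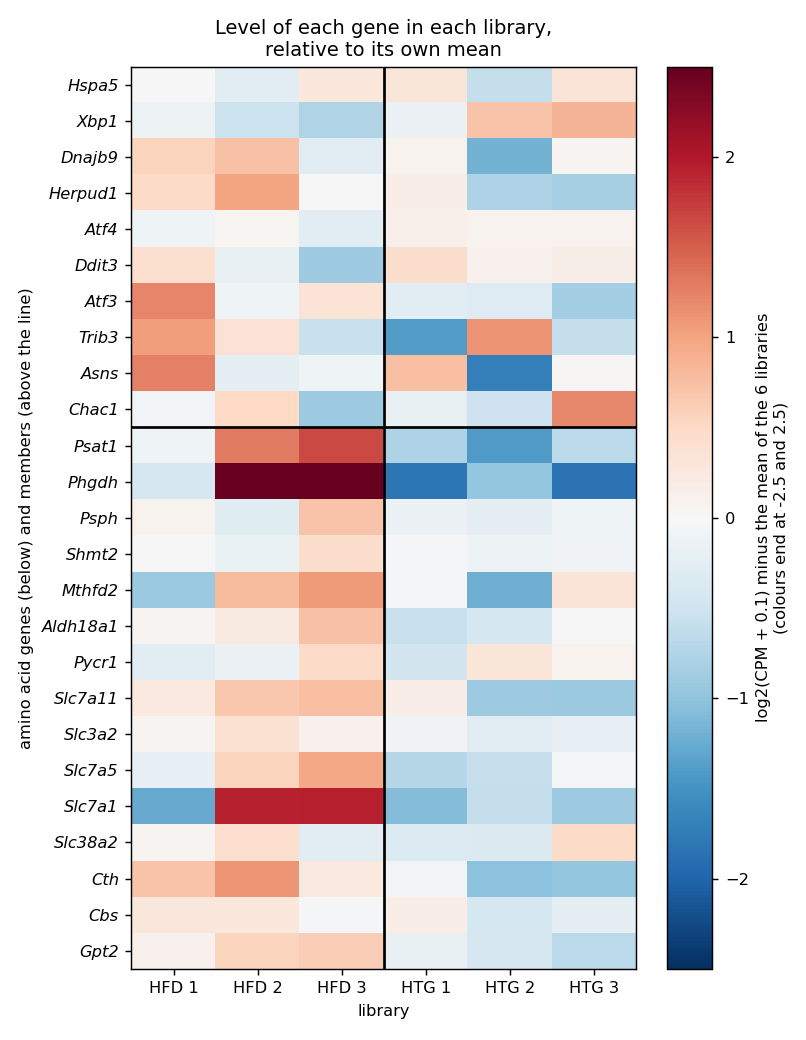
Level of the 10 members (above the horizontal line) and of the 15 amino acid genes (below it) in each library (columns), as log2(CPM + 0.1) minus the gene's mean over the 6 libraries, with colours ending at -2.5 and 2.5. Phgdh, Psat1 and Slc7a1 are high in HFD libraries 2 and 3 and not in HFD library 1, while Asns and Atf3 are highest in HFD library 1.

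Among 15 other genes known as ATF4 or CHOP targets, Bbc3 (log2 fold change 0.60), which encodes a pro-apoptotic protein, was higher and Sqstm1 (-1.15), the autophagy receptor gene, and Ddit4 (-1.01), an inhibitor of mTORC1, were lower, with a median of -0.29. Without single libraries 0 to 2 genes of this list were higher and 1 to 5 were lower. Bbc3 kept an unadjusted p under 0.05 in 6 of 17 alternatives, with p from 0.0036 to 0.128 over them. Ddit4 had an unadjusted p of 0.12 without HFD library 3 (log2 fold change -0.59), 0.0846 without HTG library 2 and 0.0641 without HTG library 3 (edgeR). Sqstm1 had 443, 835 and 436 CPM under HFD and 361, 175 and 234 CPM under HTG. Among 12 tRNA synthetase genes, a further group of ATF4 targets, Iars (-1.03), Gars (-0.61) and Nars (-0.52) were lower and 0 were higher, with a median of -0.32. Without single libraries 2 to 5 were lower and 0 were higher. Iars had 29.2, 40.8 and 47.2 CPM under HFD and 26.1, 15.6 and 15.7 CPM under HTG, where HTG library 1 came nearest to the HFD group. The adjusted p-values of the 3 synthetase genes were 0.0719, 0.0838 and 0.133 in edgeR's quasi-likelihood test, and Nars had an unadjusted p of 0.0605 without HFD library 3 and 0.0723 without HTG library 2.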

How the data were processed

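The 6 liver libraries (3 HFD, 3 HTG) were grouped by their sample labels. The submitters' processing notes list HISAT2, StringTie and SAMtools, without roles or versions, and the rat build mRatBN7.2, although the gene rows are mouse Ensembl genes. Filters, strand use in counting and the mouse build are not given in the sources used here. The authors deposited estimated counts (whole numbers, not scaled between libraries) and FPKM (per transcript length and library size).

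Counts were taken as deposited, scaled by TMM and tested by edgeR 4.0.16 (filterByExpr, glmQLFit, glmQLFTest, group as the only term) in R 4.3.3, with Benjamini-Hochberg adjustment over all 18455 genes tested. With 3 libraries against 3, the smallest exact permutation p is 0.1. CPM are counts divided by the TMM-scaled library size. Transcript length was taken as the ratio of counts to FPKM, in relative units. Libraries correlated across genes with r between 0.937 and 0.971.

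Named genes were the 10 members, the sensors Ern1, Atf6, Eif2ak3 and Eif2ak4, and up to 3 genes per list and direction with the smallest unadjusted p under 0.05. Others were named after their values were seen: Mbtps2, Calr, Manf, Derl1, Ssr1, Srp54a, Sec61a1, Slc7a1 and the remaining lower amino acid genes. Members, lists and tests were chosen with earlier results of these data known. Alternatives were DESeq2 1.42.0, other filters and scalings, a replicate block, each library left out, counts divided by 4, and limma 3.58.1 on log2(FPKM + 0.1) and log2(FPKM + 1) where the mean FPKM reached 1. Limma-voom and removal of each library's length trend were added after seeing the data. A gene that the naming rule chose is not reported here.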

Additional observations from a re-analysis of the deposited data

How the results depend on the processing

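The number of members at an unadjusted p under 0.05 was 3 (1 higher, 2 lower) in all 11 alternative fits on 6 libraries, including the replicate block, and Xbp1 kept its direction and its side of this threshold in all 17 alternatives. Members called at an adjusted p under 0.05 numbered 3 in DESeq2 and 0 elsewhere. Members with a change of over 1 log2 unit in size and an unadjusted p under 0.05 numbered 2 with upper-quartile scaling or the length trend removed and 0 with the replicate block, limma on log2(FPKM + 1) or limma-voom. Pathway genes called at an adjusted p under 0.05 numbered 23 in DESeq2, 13 with limma on log2(FPKM + 1), 6 with counts divided by 4, 5 with at least 10 counts in every library, 3 in limma-voom and 1 with no filter or limma on log2(FPKM + 0.1). Over all genes these calls numbered 2 in edgeR, 2089 in DESeq2, 873 and 83 with limma on log2(FPKM + 1) and log2(FPKM + 0.1), 822 with counts divided by 4, 684 with at least 10 counts, 351 in limma-voom, 162 with no filter and 0 with the block. Leaving out 1 library gave 1 to 4 members at an unadjusted p under 0.05 (higher 1 to 2, lower 0 to 3), 0 to 3 past both of these limits, 29 to 37 pathway genes (higher 7 to 13, lower 19 to 29), 0 to 4 pathway genes called, and a member median of -0.28 to 0.16. Only 1 member passed without HTG library 3. Over the fits without 1 library the sign turned for Hspa5 (-0.12 to 0.30; -0.03 with limma on either FPKM scale), Trib3 (-1.42 to 0.13), Asns (-1.14 to 0.18), Chac1 (-0.28 to 0.82), Ern1 (-0.36 to 0.01) and Eif2ak4 (-0.32 to 0.07). The turns came without HFD library 1 (Trib3 0.13, Asns 0.18), HFD library 2 (Hspa5 -0.07), HFD library 3 (Ern1, Eif2ak4), HTG library 1 (Hspa5 -0.12, Trib3 0.05) and HTG library 3 (Hspa5 -0.08, Chac1). The cause was not tested. Same-numbered libraries deviated from their group means with r of -0.094, -0.089 and 0.137, and differently numbered ones with r from -0.15 to 0.226. With 3 libraries per group, these values cannot show whether the numbers paired the animals. The replicate block left 3 members and 36 pathway genes at an unadjusted p under 0.05 (edgeR).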
